A study of Mus musculus with 6 samples.

Results

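The 46 genes described here encode the heat shock chaperones of the cytosol and of mitochondria, with their partner proteins, the transcription factors Hsf1 and Hsf2 and the collagen chaperone gene Serpinh1. They were taken by gene name from a list that was chosen with earlier results of these data known. Each matched 1 of the 55232 rows of the deposited table. RNA came from mouse pulmonary microvascular endothelial cells (MPVECs), labelled as a cell line, which had been in the lower chamber of a co-culture for 12 h. The 3 control samples had shared it with untreated TCMK-1 cells, which are a mouse line of kidney tubular epithelium. The repletion group (3 samples, marked IR in the treatment label and OD in the titles) had shared it with TCMK-1 cells whose ATP had been depleted and then restored. The endothelial cells themselves entered untreated in both groups, so the comparison asks how they differ by the state of their co-culture partner. The series concerns lung injury that follows renal ischemia and reperfusion. Separate cultures are not stated for the replicates. The p-values therefore measure only sample-to-sample spread, which may be technical.

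Chaperones bind unfolded proteins and release them in cycles driven by ATP. HSP70 takes up unfolded stretches with the help of J-domain proteins, and HSP110 and BAG proteins exchange its bound ADP so that it lets go. HSP90 receives part-folded clients such as kinases and steroid receptors from HSP70, and the ring-shaped chaperonins, CCT in the cytosol and HSP60 with HSP10 in mitochondria, fold proteins inside a chamber. Heat shock factor 1, which binds inverted repeats of GAA in promoters, induces many of these genes after heat and other protein damage. Endothelial cells keep constitutive HSP70 and HSP90 at high levels, and HSP90 is a known partner of their nitric oxide synthase.

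The libraries held 15582349 to 17817618 counts. No replicate pair matched within sampling noise (chi-square per degree of freedom 9.20 to 26.0), so each library counts as 1 sample. All 10 endothelial markers were present, with a summed level of 2291 to 2548 CPM (counts scaled to library size) in control and 2447 to 2908 in the repletion group. At an adjusted p under 0.05 (edgeR), 4 of them rose and 1 fell, against 20.5% and 19.2% of all tested features. Of 12 kidney tubular markers, 4 were at 0 in every library (Epcam, Krt18, Slc34a1 and Umod), and the sum was 12.9 to 16.8 CPM in control and 13.8 to 18.5 in the repletion group. The fibroblast and mural list summed to 24.1 to 25.6 CPM in control and 18.7 to 29.4 in the repletion group, with Lum at 0, and the lung epithelial list to at most 0.308 CPM, with Sftpc, Hopx and Scgb1a1 at 0. The 6 leukocyte markers summed to 378 to 416 CPM in control and 223 to 311 in the repletion group, with Cd3e at 0. Nearly all of that sum was the lysosomal gene Cd68, which fell from 369, 377 and 411 CPM to 305, 216 and 260. The part of these shifts in the chaperone results was not tested.

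In the repletion group most chaperone genes were moderately lower, whereas the HSP110 genes Hsph1 and Hspa4, which drive nucleotide exchange on HSP70, were higher. Of the 46 genes, 43 passed the filter on low counts, and of these 2 rose and 25 fell in edgeR's quasi-likelihood test (adjusted p under 0.05), against 20.5% and 19.2% of the 13804 features tested. The median log2 fold change of the 43 was -0.34, and that of all tested features was 0.00. Because the list was chosen with earlier results known, these comparisons with all features are descriptive only. The falls ran from 0.28 to 0.84 on the log2 scale, so none reached 2-fold. The groups did not overlap for 4 genes that were higher and 27 that were lower, against 25.0% and 25.4% of all tested features. Abundant features as a whole were more often lower. Among the 970 tested features with a control mean of at least 212 CPM, the median of the chaperone genes, 41.5% fell and 13.5% rose. The median log2 fold change of these 970 was -0.18. Of the 22 chaperone genes at or above that level, 16 fell and 1, Hspa4, rose. In the authors' deposited table, 3 of the 46 genes were higher and 24 lower at an adjusted p under 0.05, against 11.4% and 10.1% of its 24680 features with a value.

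**Figure D1:**
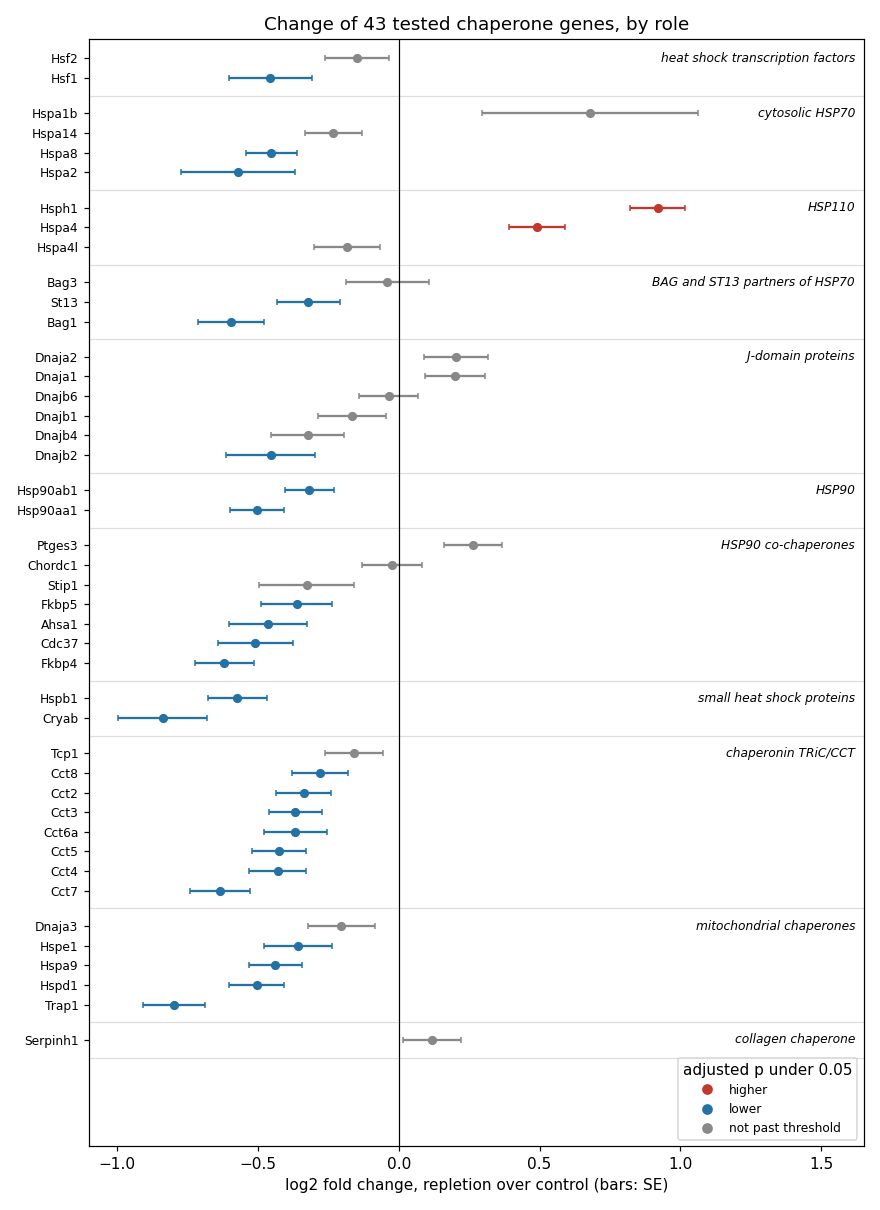
Log2 fold change of the repletion group over control (x axis) for the 43 tested genes, grouped by role, with bars for the SE; red is higher, blue lower and grey not past an adjusted p of 0.05. Only Hsph1 and Hspa4 stand to the right in red, and the 25 blue genes lie between -0.84 and -0.28.

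Summed over all 46 genes, the chaperones took 2.54%, 2.48% and 2.50% of the counts of the control libraries and 2.14%, 2.01% and 2.04% of those of the repletion libraries. All 3 repletion libraries thus lay below all 3 control libraries. HSP90 held 0.727% ± 0.0234 in control against 0.580% ± 0.0200 in the repletion libraries (SD, n = 3), the cytosolic HSP70 genes 0.655% ± 0.0228 and 0.501% ± 0.0322, and CCT 0.546% ± 0.0304 and 0.443% ± 0.00820. The mitochondrial chaperones held 0.166% ± 0.00245 and 0.125% ± 0.00359. The HSP110 genes held 0.0557% ± 0.00252 and 0.0844% ± 0.00469, the reverse direction. In bulk RNA, fewer cells that express a gene and less of its RNA per cell cannot be told apart.

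**Figure D2:**
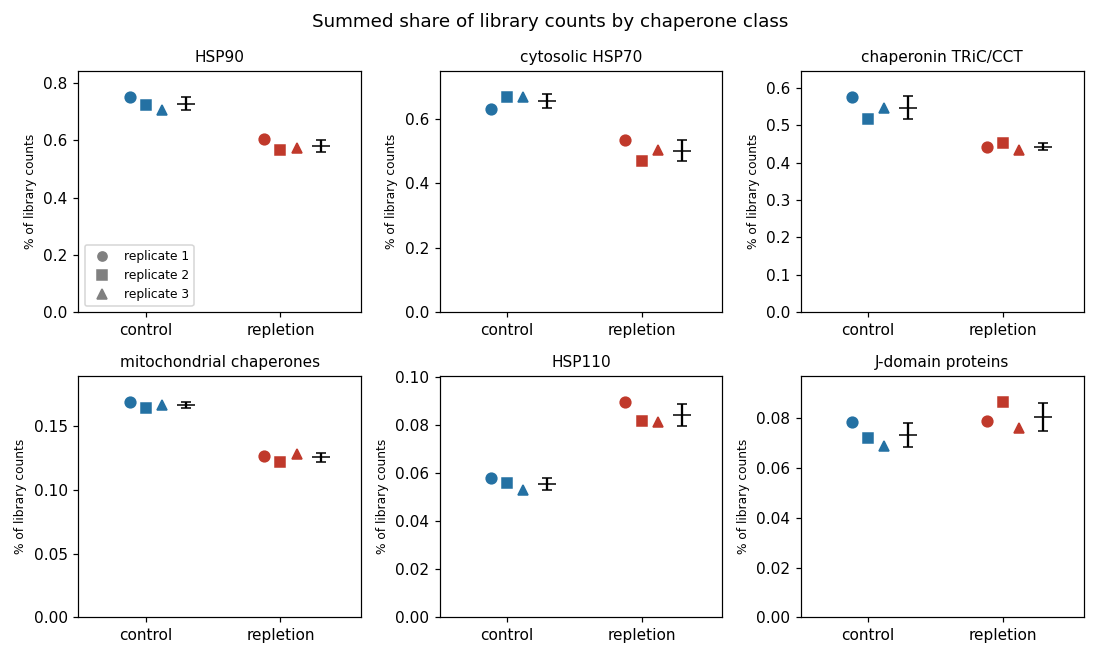
Share of each library's counts (y axis, percent, from 0) held by 6 chaperone classes in the 3 control and 3 repletion libraries, with the mean and SD to the right of the points. Repletion libraries lie below control for HSP90, HSP70, CCT and the mitochondrial chaperones, above it for HSP110, and the groups overlap for the J-domain proteins.

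HSP110 proteins are large relatives of HSP70 that act as its nucleotide exchange factors and also keep unfolded proteins soluble. Hsph1 (ENSMUSG00000029657, chromosome 5, 149614287 to 149636376, minus strand, GRCm38 as in the deposited table) stood at 121, 114 and 114 CPM in control against 216, 226 and 217 in the repletion group. Every repletion library was above every control library, and the spread within each group was small. The log2 fold change was 0.92 ± 0.10 (SE; adjusted p = 2.46e-06, edgeR), a 1.89-fold rise. Hspa4 (ENSMUSG00000020361, chromosome 11, 53259814 to 53300457, minus strand) stood at 422, 387 and 379 CPM in control against 606, 524 and 539 in the repletion group, again without overlap. Its log2 fold change was 0.49 ± 0.10 (SE; adjusted p = 0.000988, edgeR), a 1.41-fold rise. The family's other gene, Hspa4l, did not pass the test. It had 57.5, 63.3 and 52.6 CPM in control against 48.9, 52.4 and 51.4 in the repletion group, a log2 fold change of -0.18 ± 0.12 (SE; adjusted p = 0.222, edgeR), and its repletion libraries all lay below control. With length and GC trends removed it was lower (log2 fold change -0.42; adjusted p = 0.00386, edgeR).

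Promoters were searched for heat shock elements because Hsph1 and several genes that fell are known targets of heat shock factor 1. Windows of 300 bases around each RefSeq start (build GRCm38.p6) were searched on both strands for a pair of inverted units, GAANNTTC or TTCNNGAA, and for the triples GAANNTTCNNGAA and TTCNNGAANNTTC, each of which contains pairs. Of the 46 genes, 38 had a window. A triple was found for 5 of them, Hsph1, Hspd1, Hspe1, Dnajb6 and Chordc1, which is 13.2% against 0.662% of all 27025 gene symbols in the table. A pair was found for 18, which is 47.4% against 17.0%. The 5 sites are shown because genes that hold a triple did not move one way: Hsph1 rose, Hspd1 and Hspe1 fell, and Dnajb6 and Chordc1 did not pass the test. Each is given 5′ to 3′ on the strand of its gene, with the joined units in capitals.
Hsph1, chr5:149636287-149636316, minus strand: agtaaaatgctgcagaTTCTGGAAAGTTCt
Hspd1, chr1:55088053-55088082, minus strand: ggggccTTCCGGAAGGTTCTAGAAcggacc
Hspe1, chr1:55088053-55088082, plus strand: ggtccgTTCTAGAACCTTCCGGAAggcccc
Dnajb6, chr5:29735844-29735873, plus strand: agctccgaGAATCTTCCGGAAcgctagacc
Chordc1, chr9:18292260-18292289, plus strand: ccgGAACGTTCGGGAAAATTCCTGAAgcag
The Hsph1 site lies downstream of its RefSeq start, and the Chordc1 site spans the start of its gene. The Hspd1 and Hspe1 entries are 1 stretch of DNA read from both strands, since these neighbouring genes share a promoter.

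Neither of the 2 genes that rose had a pair without a triple. Such pairs occurred in genes that fell, in genes not past the threshold and in the 3 genes not tested. They are shown for Hspb1 and Fkbp4, which fell, and for Hspa1b and Bag3, which did not pass the test, with the pair in capitals. The Bag3 pair lies downstream of its RefSeq start.
Hspb1, chr5:135887791-135887820, plus strand: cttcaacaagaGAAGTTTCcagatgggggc
Fkbp4, chr6:128438789-128438818, minus strand: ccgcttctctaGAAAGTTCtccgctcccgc
Hspa1b, chr17:34959324-34959353, minus strand: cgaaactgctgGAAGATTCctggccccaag
Bag3, chr7:128523603-128523632, plus strand: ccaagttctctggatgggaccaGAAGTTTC
Of the 25 genes that fell, 17 had a window, 8 a pair and 2 a triple. The genes without a window had all fallen: Hsf1, Hspa8, St13, Hsp90aa1, Hsp90ab1, Cryab, Cct4 and Hspa9. The motif counts by direction thus leave out only genes that fell. Among the genes not past the threshold, 16 had a window, 6 a pair and 2 a triple. The 3 genes removed by the filter, Hspa1a, Dnaja4 and Hspb8, each had a window with a pair and no triple. Hspa4, which rose, had neither motif in its window. The 250 bases before its start are shown. They do not cover the position of the Hsph1 site, which lies downstream of its own start.
Hspa4, chr11:53300480-53300729, minus strand: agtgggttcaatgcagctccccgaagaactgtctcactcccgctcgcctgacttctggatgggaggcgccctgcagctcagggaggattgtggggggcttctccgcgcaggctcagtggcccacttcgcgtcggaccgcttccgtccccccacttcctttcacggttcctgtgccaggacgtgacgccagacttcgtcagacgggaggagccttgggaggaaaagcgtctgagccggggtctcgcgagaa
These matches describe letters in a window and not bound sites.

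Cytosolic HSP70 is the general chaperone that HSP110 serves. The constitutive Hspa8 (chromosome 9, 40800984 to 40810087), which folds new proteins and uncoats clathrin vesicles, had the highest level per kilobase of exon of all 46 genes in control, 1530 CPM per kb. Hsp90ab1 was close to it in control, at 1512, and above it in the repletion group, at 1213 against 1118. Hspa8 stood at 6369, 6629 and 6746 CPM in control against 5063, 4496 and 4872 in the repletion group. The groups did not overlap, and the log2 fold change was -0.45 ± 0.09 (SE; adjusted p = 0.000813, edgeR), or 0.73-fold. Hspa2, a relative best known from testis, fell from 10.0 ± 0.838 to 6.73 ± 0.446 CPM (SD, n = 3), with a log2 change of -0.57 ± 0.20 (SE; adjusted p = 0.0319, edgeR). The Hspa2 call was lost without control replicate 1 or 2 or any one repletion replicate (adjusted p = 0.0739, 0.0796, 0.0535, 0.0619 and 0.0549, edgeR). Hspa14, a ribosome-bound form, had 109 ± 3.94 CPM in control against 93.0 ± 4.58 in the repletion group and did not pass the test (adjusted p = 0.0786, edgeR), except with length and GC trends removed (0.0469). It shares 321 exon bases with Gm45902 on the same strand, so reads there may belong to either gene.

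The classical heat-inducible pair, Hspa1a and Hspa1b, had few or no counts. Hspa1b (chromosome 17, 34956436 to 34959238) had 28, 26 and 35 counts in control and 36, 62 and 46 in the repletion group. All 3 repletion libraries were above control, with a log2 fold change of 0.68 ± 0.38 (SE) that did not pass the test (adjusted p = 0.172, edgeR). Without repletion replicate 2 it was 0.41 (0.481). Hspa1a had 0 counts in each control library and 2, 0 and 1 in the repletion libraries, and was removed by the filter. A count of 0 allows up to 3 counts, or 0.168 to 0.193 CPM, which covers counting error only. The exons of the pair are 99.23% identical over 2201 bases, and how reads that fit both genes were counted is not given. The split between them and the total of the pair are therefore uncertain.

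HSP110 RNA was set against its chaperone by adding Hsph1, Hspa4 and Hspa4l and dividing by Hspa8. The sum was 9.42, 8.51 and 8.09 per 100 Hspa8 counts in control and 17.2, 17.9 and 16.6 in the repletion group. Within the family, Hsph1 stood at 28.6, 29.4 and 30.2 per 100 Hspa4 counts in control and 35.6, 43.2 and 40.3 in the repletion group. Neither ratio overlapped between the groups. For HSP110 over Hspa8 this largely follows from the rises of Hsph1 and Hspa4 and the fall of Hspa8 already given, and is no further support. An exact two-sided permutation test of 3 libraries against 3 cannot go below 0.1, and no other test of these ratios was run.

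**Figure D3:**
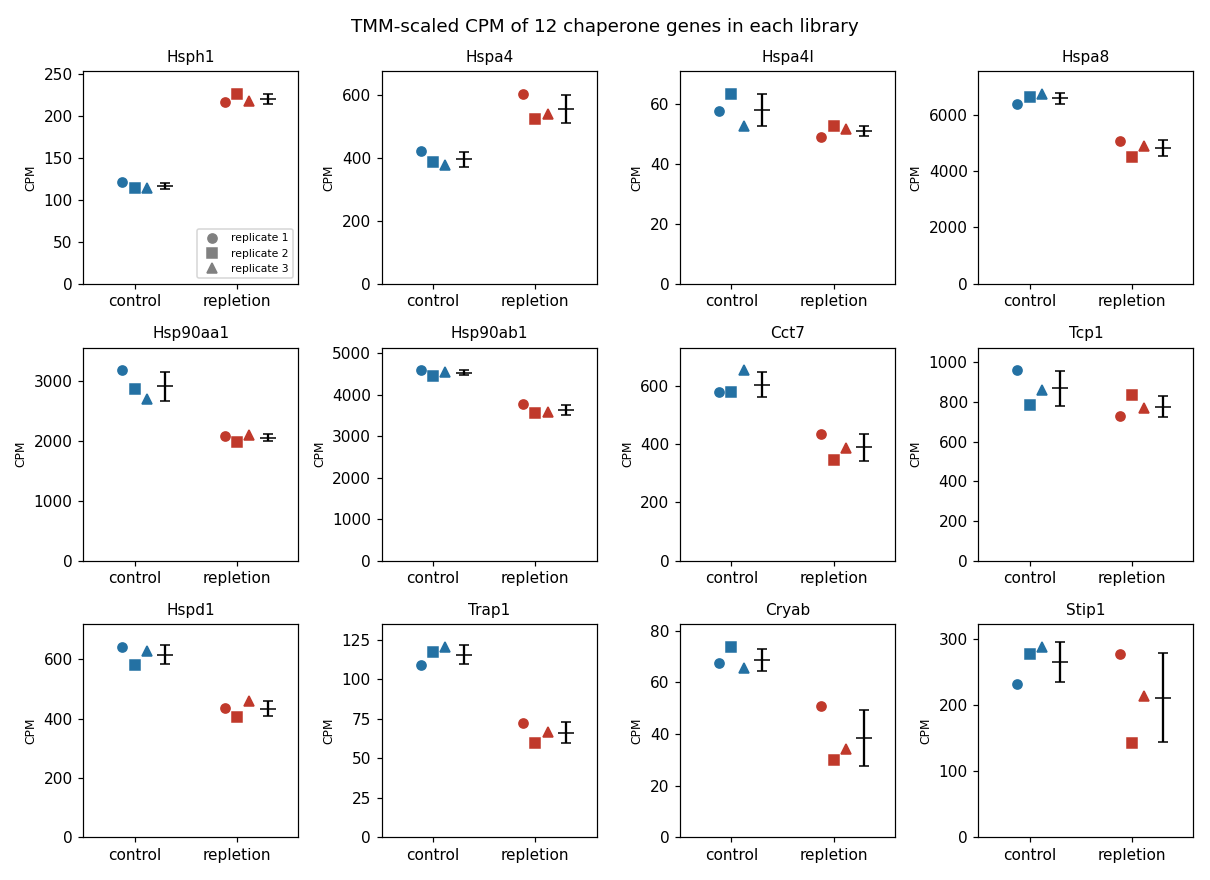
TMM-scaled CPM (y axes, from 0) of 12 genes in the 3 control libraries (blue) and 3 repletion libraries (red), with the mean and SD beside each group and symbols for replicates. Hsph1 and Hspa4 are higher in every repletion library, Tcp1 and Stip1 overlap, and the other 8 genes are lower in every repletion library.

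BAG proteins and ST13 steer HSP70. Bag1, which couples it to the proteasome, had 171, 153 and 173 CPM in control against 123, 92.5 and 113 in the repletion group. The groups stood apart, with a log2 fold change of -0.60 ± 0.12 (SE; adjusted p = 0.00068, edgeR). St13, which stabilises HSP70 bound to ADP, fell from 385 ± 18.3 to 308 ± 47.9 CPM (SD, n = 3), with a log2 fold change of -0.32 ± 0.11 (SE; adjusted p = 0.0312, edgeR). The St13 call was lost without control replicate 1 or 3 or repletion replicate 1 or 3 (adjusted p = 0.0723, 0.0782, 0.0918 and 0.138, edgeR). Bag3, which takes part in autophagy of damaged proteins and is a stress-induced gene, had 70.6, 73.9 and 66.0 CPM in control against 82.9, 50.3 and 71.3 in the repletion group. The groups overlapped (log2 fold change -0.04 ± 0.15, SE; adjusted p = 0.848, edgeR), and the sign of its change depended on the scaling.

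J-domain proteins deliver unfolded chains to HSP70 and trigger its ATPase. Of 6 tested, 1 fell and none rose, and the share that fell is near the 19.2% of all tested features. Dnajb2, abundant in neurons, fell from 18.9 ± 1.30 to 13.8 ± 1.11 CPM (SD, n = 3), with a log2 change of -0.45 ± 0.16 (SE; adjusted p = 0.0297, edgeR). The Dnajb2 call was lost without control replicate 2 or 3 or repletion replicate 1 or 3 (adjusted p = 0.0906, 0.0786, 0.0763 and 0.0672, edgeR). Dnajb1, the heat-inducible partner of HSP70, had 52.2, 56.5 and 55.5 CPM in control against 46.7, 43.9 and 55.6 in the repletion group (adjusted p = 0.296, edgeR). Near copies of Dnaja1 and Dnajb6 had 3.68% and 4.99% of the counts of these genes, so their levels are uncertain. Dnaja1 also shares 608 exon bases with Smu1 and 249 with Gm6297 on the opposite strand, and the counting's use of strand is not stated. Dnaja1 and Dnaja2 had log2 fold changes of 0.20 ± 0.11 each (SE; adjusted p = 0.151 and 0.167, edgeR). Dnaja2 was higher with length and GC trends removed, at 0.29 (adjusted p = 0.0193, edgeR), and was at 0.09 without repletion replicate 2. Dnajb4 had -0.32 ± 0.13 (adjusted p = 0.0528, edgeR; 0.00468 without repletion replicate 2 and 0.00676 with trends removed) and Dnajb6 -0.04 ± 0.10 (adjusted p = 0.813, edgeR). Dnaja4 was removed by the filter, with 3, 3 and 1 counts in control and 9, 0 and 3 in the repletion group.

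Both cytosolic HSP90 genes fell. Hsp90aa1, the inducible form (chromosome 12, 110690605 to 110702728), had 3173, 2859 and 2692 CPM in control against 2073, 1986 and 2090 in the repletion group. No repletion library reached the lowest control library. The log2 fold change was -0.50 ± 0.10 (SE; adjusted p = 0.00052, edgeR). Its 3 near copies, of which Gm12346 matches longest (99.47% identical over 2255 bases), together had 1.50% of its counts. Hsp90ab1, the constitutive form (chromosome 17, 45567775 to 45573271), had 4588, 4458 and 4557 CPM in control against 3773, 3557 and 3584 in the repletion group. It too did not overlap, with a log2 fold change of -0.32 ± 0.09 (SE; adjusted p = 0.00843, edgeR). Hsp90aa1 stood at 69.2, 64.1 and 59.1 per 100 Hsp90ab1 counts in control and 54.9, 55.8 and 58.3 in the repletion group. The highest repletion ratio was just under the lowest control ratio.

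HSP90 co-chaperones set the pace of its cycle and choose its clients. Of 7 tested, 4 fell and none rose, against 19.2% and 20.5% of all tested features. Fkbp4, which tunes steroid receptors, had 222, 222 and 240 CPM in control against 165, 133 and 147 in the repletion group. The groups were well apart, with a log2 fold change of -0.62 ± 0.11 (SE; adjusted p = 0.000223, edgeR), or 0.65-fold. Cdc37, which brings kinases to HSP90, fell from 212 ± 21.5 to 149 ± 31.1 CPM (SD, n = 3), with a log2 change of -0.51 ± 0.13 (SE; adjusted p = 0.00577, edgeR). Ahsa1, which stimulates the HSP90 ATPase, fell from 95.7 ± 5.16 to 69.3 ± 15.5 CPM, with a log2 fold change of -0.47 ± 0.14 (SE; adjusted p = 0.0131, edgeR). Without repletion replicate 2 the change of Ahsa1 was -0.31, and without control replicate 3 its call was lost (adjusted p = 0.0520, edgeR). Fkbp5, a glucocorticoid-induced relative of Fkbp4, fell by 0.36 ± 0.12 on the log2 scale (SE; adjusted p = 0.0277, edgeR), a call lost without control replicate 2 or 3 or repletion replicate 2 or 3 (adjusted p = 0.0614, 0.0825, 0.0597 and 0.0964, edgeR).

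The remaining HSP90 partners did not pass the test. Stip1, which hands clients from HSP70 to HSP90, had 232, 278 and 288 CPM in control against 278, 143 and 214 in the repletion group. Its repletion libraries were the most scattered of these co-chaperones, from the level of control to well below it (log2 fold change -0.33 ± 0.17, SE; adjusted p = 0.130, edgeR). Without repletion replicate 1 it was lower, at -0.58 (adjusted p = 0.00220, edgeR), and without repletion replicate 2 it was at -0.12 (0.496). Ptges3, the p23 protein that holds HSP90 closed, had 261, 233 and 249 CPM in control against 267, 318 and 306 in the repletion group. It was higher in all 3 repletion libraries but just missed the threshold (log2 fold change 0.26 ± 0.10, SE; adjusted p = 0.0518, edgeR). It passed without repletion replicate 1 (adjusted p = 0.0161, edgeR), with trends removed (0.00343) and with DESeq2 (0.0314). Its pseudogene Ptges3-ps, identical over 480 bases, had 18.4% of its counts, so its level is uncertain. Chordc1, a zinc-binding HSP90 partner, had a log2 fold change of -0.03 ± 0.11 (SE; adjusted p = 0.874, edgeR). With length and GC trends removed Chordc1 was lower, at -0.30 (adjusted p = 0.00847, edgeR).

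Small heat shock proteins hold unfolded proteins without using ATP. Cryab, αB-crystallin (ENSMUSG00000032060, chromosome 9, 50751325 to 50756636), had the largest fall of the 43 genes. It stood at 67.4, 73.6 and 65.5 CPM in control against 50.9, 30.2 and 34.3 in the repletion group. Repletion replicate 1 lay between the control libraries and the other two. The log2 fold change was -0.84 ± 0.16 (SE; adjusted p = 0.000515, edgeR), or 0.56-fold. It shares 252 exon bases with Hspb2, so reads there may belong to either gene. Hspb1, known as HSP27 in humans and a regulator of actin in endothelial cells, had 249, 214 and 216 CPM in control against 163, 148 and 146 in the repletion group. It did not overlap between the groups (log2 fold change -0.57 ± 0.10, SE; adjusted p = 0.000368, edgeR). Hspb8 was removed by the filter, with 0, 5 and 0 counts in control and 3, 0 and 3 in the repletion group.

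CCT is a ring of 8 different subunits that folds actin and tubulin. Its genes moved mostly down: 7 of 8 fell and none rose, against 19.2% and 20.5% of all tested features. Their median log2 fold change was -0.37. All 8 stood above 212 CPM in control, where 41.5% of tested features fell, 13.5% rose and the median log2 fold change was -0.18. Cct7 (ENSMUSG00000030007, chromosome 6, 85451514 to 85468475) had 581, 580 and 655 CPM in control against 437, 345 and 387 in the repletion group. This was the largest fall among the subunits, with clearly separate groups and a log2 fold change of -0.64 ± 0.11 (SE; adjusted p = 0.000213, edgeR). Cct4 fell from 1090 ± 110 to 809 ± 48.6 CPM (SD, n = 3), with a log2 change of -0.43 ± 0.10 (SE; adjusted p = 0.003, edgeR). Cct2, Cct3, Cct5, Cct6a and Cct8 had log2 fold changes of -0.34, -0.37, -0.43, -0.37 and -0.28, and that of Cct8 was the weakest (adjusted p = 0.0323, edgeR). The Cct8 call was lost without control replicate 1 or 3 or repletion replicate 1 or 3 (adjusted p = 0.0805, 0.0887, 0.0700 and 0.110, edgeR), that of Cct2 without control replicate 3 (0.0512) and that of Cct6a without control replicate 1 (0.0582). Tcp1, the first subunit, did not pass. It had 960, 787 and 859 CPM in control against 728, 833 and 771 in the repletion group, so the groups overlapped (log2 fold change -0.16 ± 0.10, SE; adjusted p = 0.230, edgeR). The counting's use of strand is not stated, and Tcp1 shares 571 exon bases with Acat3 and 141 with Mrpl18, Cct6a 452 with Psph, Cct7 214 with Pradc1 and Cct8 192 with Usp16.

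Mitochondrial chaperones fold proteins after import. Of 5 tested, 4 fell, against 19.2% of all tested features, and the median log2 fold change was -0.44. Trap1, the mitochondrial HSP90 (ENSMUSG00000005981, chromosome 16, 4039971 to 4077827), had 109, 117 and 120 CPM in control against 72.6, 59.8 and 66.8 in the repletion group. All repletion libraries lay far below control (log2 fold change -0.80 ± 0.11, SE; adjusted p = 3.08e-05, edgeR), or 0.57-fold. It shares 54 exon bases with Dnase1. Hspd1, which encodes HSP60 (chromosome 1, 55077835 to 55088243), had 640, 579 and 627 CPM in control against 434, 407 and 460 in the repletion group. The groups were again separate (log2 fold change -0.50 ± 0.10, SE; adjusted p = 0.000666, edgeR). The near copy Hspd1-ps3, 98.96% identical over 1722 bases, had 2.49% of the counts of Hspd1. Hspa9, the HSP70 that pulls proteins through the inner membrane, fell from 802 ± 18.5 to 592 ± 20.9 CPM (SD, n = 3), with a log2 change of -0.44 ± 0.09 (SE; adjusted p = 0.00137, edgeR).

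Hspe1 encodes HSP10, the lid of HSP60, and lies head to head with Hspd1, with 112 shared exon bases on opposite strands. It had 113, 97.1 and 106 CPM in control against 69.6, 94.5 and 82.8 in the repletion group, and fell by 0.36 ± 0.12 on the log2 scale (SE; adjusted p = 0.0256, edgeR). Repletion replicate 2 came close to the lowest control library. The Hspe1 call was lost without control replicate 1 or 3 or repletion replicate 1 or 3 (adjusted p = 0.0745, 0.0694, 0.0931 and 0.0716, edgeR). Hspe1 stood at 17.6, 16.8 and 17.0 per 100 Hspd1 counts in control and 16.0, 23.3 and 18.0 in the repletion group, so this ratio overlapped. Dnaja3, the J-domain partner of Hspa9, did not pass (log2 fold change -0.20 ± 0.12, SE; adjusted p = 0.183, edgeR).

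Serpinh1 encodes HSP47, which folds collagen in the endoplasmic reticulum and is induced by heat. It had 476, 495 and 558 CPM in control against 578, 504 and 577 in the repletion group. The groups overlapped, and the change did not pass the test (log2 fold change 0.12 ± 0.10, SE; adjusted p = 0.386, edgeR).

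Of the heat shock factors, Hsf1 had 79.6, 72.4 and 78.2 CPM in control against 69.7, 41.7 and 56.2 in the repletion group. The groups were separate but the repletion libraries were spread widely, and the log2 fold change was -0.46 ± 0.15 (SE; adjusted p = 0.0204, edgeR). Without repletion replicate 2 it was -0.29 and did not pass (adjusted p = 0.0758, edgeR), nor did it without control replicate 3 (0.0569) or repletion replicate 3 (0.0614). Hsf2 had 67.5 ± 6.92 and 60.9 ± 1.37 CPM (SD, n = 3) and did not pass (log2 fold change -0.15 ± 0.11, SE; adjusted p = 0.317, edgeR). With length and GC trends removed Hsf2 was lower, at -0.47 (adjusted p = 0.00170, edgeR). Hsf1 is regulated mainly as a protein, which RNA levels do not measure.

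**Figure D4:**
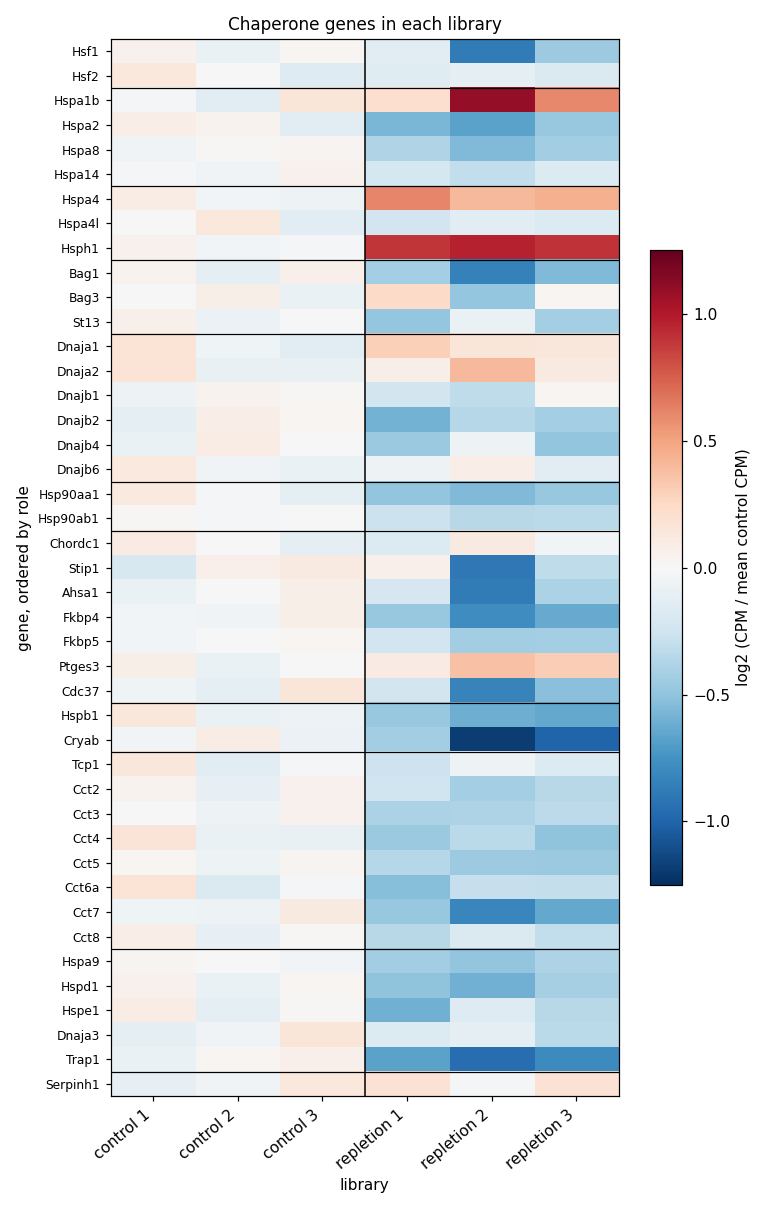
Log2 of CPM over the mean control CPM (color) for the 43 tested genes (rows, by role) in each of the 6 libraries (columns). Blue prevails in the repletion libraries, 6 genes (Hsph1, Hspa4, Hspa1b, Dnaja1, Dnaja2 and Ptges3) lie above the control mean in all 3 of them, and repletion replicate 2 holds many of the deepest colors.

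Repletion replicate 2 stood at the ends of its group more often than the other repletion libraries. It was the lowest of the 3 for 22 of the 43 genes and the highest for 17, against 13 and 19 for replicate 1 and 8 and 7 for replicate 3. Genes below the control mean numbered 34, 35 and 34 in repletion replicates 1, 2 and 3. Leaving out each of the 6 libraries in turn gave 17 to 23 genes that fell and 2 to 3 that rose. Of all tested features, 1977 to 2745 fell and 2195 to 2765 rose.

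A further list of 60 chaperone genes outside the 46, also chosen with earlier results known, was examined, of which 56 were tested. Of these 7 rose and 19 fell, with a median log2 fold change of -0.20, against the same 20.5% and 19.2% of all tested features. Mitochondrial import and quality control genes again moved down, with 7 of 11 lower and none higher, such as Pam16, part of the import motor, which fell from 24.3 ± 3.05 to 12.9 ± 3.22 CPM (SD, n = 3). Prefoldin, which passes actin and tubulin to CCT, had 2 of 6 lower, among them Pfdn1 with a log2 fold change of -0.59 ± 0.20 (SE; adjusted p = 0.0253, edgeR). None of the 3 tested assistants of CCT passed.

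Of 11 other regulators of HSP70, 2 were higher and 3 lower, near the 20.5% and 19.2% of all tested features. Bag2, an exchange factor that inhibits the ubiquitin ligase CHIP, rose from 8.10 ± 1.33 to 18.6 ± 6.44 CPM (SD, n = 3; adjusted p = 0.00076, edgeR). Stub1, which encodes CHIP, fell from 41.0 ± 6.47 to 24.7 ± 2.23 CPM, a log2 fold change of -0.73 ± 0.14 (SE; adjusted p = 0.000712, edgeR). Further J-domain genes had 3 of 11 higher and 3 lower. Dnajc9, a histone chaperone, fell from 123 ± 12.9 to 74.4 ± 11.9 CPM. Further HSP90 co-chaperones had 2 of 12 higher, with Tomm34 at a log2 fold change of 0.53 ± 0.11 (SE; adjusted p = 0.00148, edgeR), and 3 lower. Hsf4, a heat shock factor best known from the lens, fell from 5.05 ± 0.604 to 2.10 ± 0.306 CPM.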

How the data were processed

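RNA of 6 libraries was measured by RNA-seq. The deposited table holds raw counts per gene, which the authors made with no normalization stated, together with log2 fold changes and p-values of the authors' own comparison. The submitters' processing notes name HISAT2 2.0.5, featureCounts 1.5.0-p3, DESeq2 1.20.0 and build GRCm38.p6. Annotation release and strand setting: not given in the sources used here.

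Counts were tested with edgeR 4.0.16 (R 4.3.3): filterByExpr, TMM factors (0.970 to 1.03), the quasi-likelihood test, two-sided, with Benjamini-Hochberg adjustment over 13804 features and a threshold of 0.05. The filter removed 41428 features. The spread between replicates beyond counting error was 14.1% (edgeR's common coefficient). The script was tested on simulated data. CPM are TMM-scaled, and values per kb use the table's gene length. Shares and ratios use raw counts. Copies were sought with BLAST 2.17.0 (at least 95% identity over 200 bases). Promoter sequences are from RefSeq.

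All 46 genes are named. Of the further list, the gene with the smallest p per subgroup and direction may be named; some are not reported here. The members and lists were chosen with earlier results of these data known. Alternatives were another scaling, filter or tool (DESeq2 1.42.0, limma-voom 3.58.1), protein-coding genes only, a replicate block, removal of length and GC trends, and leaving out each library.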

Additional observations from a re-analysis of the deposited data

How the results depend on the processing

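Of the 27 genes called, all kept their direction and 17 their call under every alternative listed under processing, and 8 of the 16 others passed in some alternative. Removing length and GC trends gave 4 higher genes, adding Dnaja2 (log2 fold change 0.29) and Ptges3 (0.37), against 2698 of all 13804 tested features. The block with the trend removed also counted 4 higher genes, against 2409 features. Genes lower numbered 19 to 27 across settings that kept all libraries, and all features lower numbered 2199 to 2886. Calls lost in at least 1 alternative were those of Hsf1, Hspa2, St13, Dnajb2, Fkbp5, Cct8, Hspe1, Ahsa1, Cct2 and Cct6a. Leaving out a library in turn gave 2 to 3 higher and 17 to 23 lower genes, 2195 to 2765 higher and 1977 to 2745 lower features, and 6 to 8 higher and 14 to 23 lower genes of the further list. Signs turned for 3 uncalled genes. With library size only, the log2 fold changes of Bag3, Dnajb6 and Chordc1 were 0.0218, 0.0268 and 0.0368. Bag3 was at 0.0398 with the trend removed, 0.0216 with block and trend, and -0.21 to 0.13 with a library left out. Dnajb6 ran from -0.10 to 0.00807 and Chordc1 from -0.10 to 0.0371 with a library left out, and Chordc1 was called lower at -0.30 with the trend removed, also with the block. The cause was not tested.

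With the replicate number as a block, 2 genes were higher and 20 lower, against 2485 and 2353 of all 13804 tested features. Same-numbered libraries had correlations of -0.08, -0.03 and 0.06 in their deviations, and differently numbered ones -0.06 to 0.08. With 3 libraries per group these values cannot decide whether samples were paired, and the titles state no pairing. Hspa1a, Dnaja4 and Hspb8 had too few counts to be tested, and each of these had a count of 0 in some library. Dnaja4 shares 1581 exon bases with Wdr61. Why these counts were low was not tested. Hspa1b has the largest SE of the tested genes, 0.38.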
